A study of Homo sapiens with 9 samples.

Results

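The genes described here are the 40 nuclear genes for subunits of respiratory complexes II, III and IV, of ATP synthase (complex V), and for cytochrome c. They were taken by symbol from a list given for this gene group, and all 40 had their own row among the 60448 rows of the count table. By complex they are 4 genes of complex II, 9 of complex III, 1 for cytochrome c, 11 of complex IV and 15 of complex V. The respiratory chain sits in the inner mitochondrial membrane, most of it in the folds called cristae. Complex II passes electrons from succinate to coenzyme Q, complex III passes them on to cytochrome c, and complex IV hands them to oxygen, while complexes III and IV pump protons. ATP synthase lets the protons back and makes ATP, and complexes III to V are built from both nuclear subunits and a few encoded in mitochondrial DNA.

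Messenger RNA was counted in 9 libraries of total RNA from cells labelled Huh7, an established human liver cancer line, kept in DMEM. The groups were control (3 libraries) and knock-downs of OPA1, labelled N_28 (3 libraries) and N_30 (3 libraries). OPA1 is the dynamin-like GTPase of the inner membrane that fuses it and shapes cristae, and the series asks what OPA1 does in this cancer. The labels give the same lentivirus text for all libraries, controls included, name no control construct, and leave the names N_28 and N_30 unexplained. They also do not state whether replicate libraries are separate cultures, so the p-values reflect only library-to-library spread, possibly technical.

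Total counts ran from 16476389 to 22863328 per library, and the 40 genes held 0.522 to 0.569% of them. OPA1 stood at 88.7 ± 5.28 CPM (counts scaled to library size, SD, n = 3) in control, 55.6 ± 2.25 in N_28 and 64.5 ± 1.30 in N_30. All 40 genes passed the filter on low counts and are among the 15019 genes tested.

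Most of these transcripts moved little when OPA1 was lowered, and few passed the test. Against control, COX7C and ATP5F1D were called higher in N_28 and COX7C in N_30, and 0 of the 40 genes were called lower in either. Called here means a Benjamini-Hochberg adjusted p under 0.05 over all tested genes by edgeR's quasi-likelihood test. In N_28, 2 of 40 were called higher, where 4.49% of all tested genes were, and 0 lower, where 5.75% of all genes were. In N_30, 1 of 40 was called higher against a background of 0.459%, and 0 lower against 0.406%. When both knock-downs were averaged and set against control, COX7C alone was called, with 0.533% of all genes higher and 1.25% lower. Fitted with the replicate number as a block, which libraries of control and N_30 appear to share, the N_30 background was 1.55% higher and 1.27% lower, and COX7C was again the 1 gene of the 40 called. In N_28 the block fit called 4 of the 40 higher and 3 lower (SDHA, UQCRB and UQCR10). Of all 15019 tested genes it called 1068 higher and 1233 lower there. Calls below are from the fit without the block unless stated. Without the block, the unadjusted edgeR p was under 0.05 for 6 genes above and 3 below control in N_28. In N_30 it was for 4 above and 0 below. Of all 15019 tested genes, 1711 above and 1878 below control had such a p in N_28, and 851 and 865 in N_30.

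Several marker transcripts of cell types were called in N_28 against control, while 0 were called in N_30 against control. Calls were rarer in N_30 over the whole table too. Of all 15019 tested genes, 1538 were called in N_28 against control, 130 in N_30 against control and 2755 in N_30 against N_28. Of 10 hepatocyte markers 4 passed the filter. Summed over all 10, control libraries had 10.4 to 13.6 CPM, N_28 libraries 6.1 to 7.82 CPM and N_30 libraries 12.1 to 17.5 CPM. ALB (0.0788 CPM in control) and HNF4A (0.0312 CPM) were near 0 and APOB had 0 counts, while FGB had 5.93 CPM. AFP had 12 to 26 counts per library, APOA1 0 to 4 and TTR 1 to 6. These are low levels for a line labelled as liver cancer, and whether the cells are that line was not tested. SERPINA1 and TF were called lower in N_28, and they and FGB were called higher in N_30 than in N_28. Of the 4 tested hepatocyte markers, 1 lay above control in N_28, at a log2 fold change of 0.30, and was not called. The 6 mesenchymal markers (VIM at 1493 CPM in control), all tested, had sums of 2539 to 2683 CPM in control libraries, 2269 to 2370 CPM in those of N_28 and 2554 to 2741 CPM in those of N_30. CDH2 and S100A4 were called lower in N_28, and both and COL1A1 higher in N_30 than in N_28. The 5 epithelial markers (KRT8 at 411 CPM in control), 3 of them tested, had sums of 469 to 543 CPM in control libraries, 386 to 431 CPM in those of N_28 and 570 to 602 CPM in those of N_30. KRT8 was called lower in N_28, and KRT8 and KRT18 were called higher in N_30 than in N_28. The third tested one, CDH1, went the other way and was not called. Its log2 fold changes were 0.18 in N_28, -0.44 in N_30 and -0.62 in N_30 against N_28. The 3 endothelial markers summed to at most 2.7 CPM in any library (PECAM1 was called higher in N_28, at a log2 fold change of 0.81) and the 3 blood markers to at most 0.538 CPM. Bulk libraries cannot separate a change in RNA per cell from a change in which cells were present, and the part of these markers' changes in the values of the 40 genes was not tested.

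Across the 40 genes the fold changes were small. In N_28, 27 of 40 lay above control, with a median log2 fold change of 0.03 and a range from -0.21 to 0.31. In N_30, 31 of 40 lay above control, with a median of 0.05 and a range from -0.07 to 0.34. Over all 15019 genes, 49.7% lay above 0 in N_28 and 49.8% in N_30, with medians of -0.001 and -0.0007. Both comparisons use the same 3 control libraries. Leaving out 1 library changed these counts: without control replicate 1, 20 of 40 lay above control in N_28 (median 0.006), and without N_30 replicate 3, 21 of 40 did in N_30 (median 0.009). No test was made of them.

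**Figure D1:**
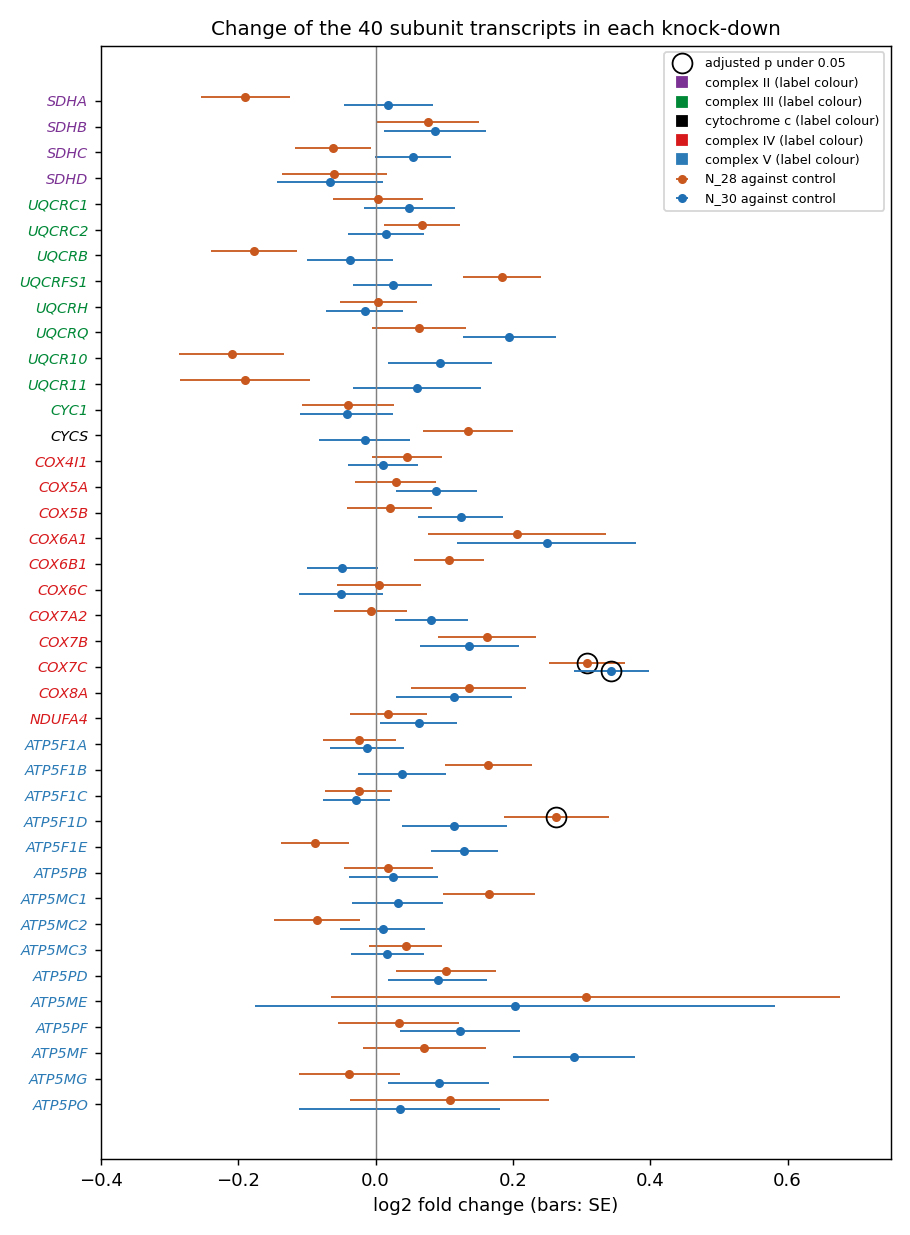
The log2 fold change of each of the 40 subunit transcripts against control (horizontal axis), with its standard error as a bar, in N_28 (orange) and N_30 (blue), with gene names coloured by complex and circles around called values. Values run from -0.21 to 0.34, ATP5ME has the widest bars, and the circles mark COX7C in both knock-downs and ATP5F1D in N_28.

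The precision of the fit bounds what may have been missed. For 37 of the 38 uncalled genes in N_28, the 95% interval of the log2 fold change lay within 0.5 of 0, with ATP5ME the exception. In N_30 this held for 37 of 39 uncalled genes, with COX6A1 and ATP5ME outside. ATP5ME, a small membrane subunit of ATP synthase, had only 13 to 31 counts per library and an interval in N_28 from -0.49 to 1.10.

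Libraries of the groups compared did not overlap for more genes than were called. In N_28, 8 of 40 genes were above every control library in all 3 libraries, against 14.2% of all tested genes, and 4 of 40 were below, against 14.6%. In N_30, 7 of 40 were above (background 7.53%) and 0 were below (7.64%). The 7 are the cytochrome oxidase genes COX7C, COX5B, COX6A1 and COX7A2, the complex III gene UQCRQ, and ATP5F1E and ATP5MF of ATP synthase.

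Transcript levels between genes were compared per kilobase of coding sequence, in control libraries. CYCS, the gene of the electron carrier cytochrome c, was highest at 1191 CPM per kb, followed by ATP5F1E (971), COX7C (755), COX4I1 (615) and CYC1 (601). The CYCS libraries ran from 1106 to 1279 and those of ATP5F1E from 954 to 981, so these neighbours did not overlap, whereas COX4I1 (606 to 628) and CYC1 (585 to 612) did. By medians, complex IV stood at 222, complex V at 161, complex III at 150 and complex II at 82.2 CPM per kb. The order depends on the length used: per kilobase of whole transcript CYC1 ranked 1 and CYCS 2, COX7C fell to rank 10 and ATP5F1E to rank 11.

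Complex II, succinate dehydrogenase, also works in the citric acid cycle. Its catalytic flavoprotein SDHA (chromosome 5, 218241 to 256700, plus strand, GENCODE 29 on GRCh38) had 181, 166 and 174 CPM in control libraries 1 to 3, 152, 147 and 158 CPM in N_28, and 165, 171 and 191 CPM in N_30. All 3 N_28 libraries lay below every control and every N_30 library, and control and N_30 overlapped. Against control, N_28 had a log2 fold change of -0.19 (SE 0.06, edgeR adjusted p = 0.0825) and N_30 one of 0.02 (SE 0.06, adjusted p = 0.952), and neither passed. N_30 lay above N_28 by 0.21 (SE 0.06, edgeR adjusted p = 0.0388), which passed. SDHA shares sequence with 4 pseudogene rows (SDHAP1 to SDHAP4 by name), which held 18.0% of the summed counts of SDHA and these rows, so the assignment of its reads is uncertain.

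The iron-sulfur subunit SDHB was the highest of complex II in both knock-downs, at log2 fold changes of 0.08 (SE 0.07) in N_28 and 0.09 (SE 0.07) in N_30, from 64.8 ± 2.21 CPM in control. SDHC, a membrane anchor, stood at 101 ± 5.44 CPM in control, 97.0 ± 1.62 in N_28 and 105 ± 1.08 in N_30 (SD, n = 3). The other anchor, SDHD, was lowest in N_30, at -0.07 (SE 0.08), from 21.7 ± 0.995 CPM in control. None of these 3 was called in any comparison. Summed over the 4 genes, complex II had 361 ± 6.99 CPM in control, 338 ± 8.66 in N_28 and 371 ± 18.5 in N_30. The N_28 sums (329 to 345 CPM) were all below the control sums (354 to 368 CPM), while those of N_30 overlapped control. No test was made of them.

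In complex III, 0 of 9 genes were called against control in either knock-down, with 5 of 9 above 0 in N_28 and 6 of 9 in N_30. With the replicate block, 1 of the 9 was called higher and 2 lower in N_28. The small subunit UQCR10 (chromosome 22, 29767369 to 29770413, plus strand) had 43.3, 45.4 and 44.0 CPM in control, 35.4, 40.3 and 39.1 CPM in N_28 and 45.4, 43.9 and 52.1 CPM in N_30. Its N_28 libraries were below all others, and its control and N_30 libraries overlapped. Against control, N_28 had -0.21 (SE 0.08, edgeR adjusted p = 0.103) and N_30 had 0.09 (SE 0.08, adjusted p = 0.705), and the difference between the knock-downs was 0.30 (SE 0.08, edgeR adjusted p = 0.0134), higher in N_30. Genes of chromosome 22 with at least 5 CPM had a median of -0.11 in N_28 and 0.06 in N_30 over 252 genes, in the same directions as UQCR10. The part of that shift in the UQCR10 value was not tested.

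UQCRFS1, the Rieske iron-sulfur protein that carries the electron to cytochrome c1, was the highest of complex III in N_28. It had 96.3, 103 and 105 CPM in control, 113, 116 and 117 CPM in N_28 and 97.6, 106 and 106 CPM in N_30. Every N_28 library was above every control library, yet the log2 fold change of 0.18 (SE 0.06) missed the threshold with an edgeR adjusted p = 0.0580, the lowest among the uncalled genes in N_28. In N_30 it stood at 0.02 (SE 0.06).

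UQCRQ, a small ubiquinone-binding subunit, was the highest of complex III in N_30. Its values were 32.1, 33.4 and 30.0 CPM in control, 34.1, 33.8 and 31.9 CPM in N_28 and 37.6, 35.6 and 36.2 CPM in N_30. The N_30 libraries lay above all others, with a log2 fold change of 0.19 (SE 0.07, edgeR adjusted p = 0.261) that was not called. CYC1, the cytochrome c1 subunit, was lowest in N_30 at -0.04 (SE 0.07), and its N_30 libraries spread from 513 to 622 CPM around controls of 570 to 597 CPM.

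The core subunits UQCRC1 (210 to 225 CPM in control) and UQCRC2 (104 to 115 CPM) had log2 fold changes of 0.003 and 0.07 in N_28, and of 0.05 and 0.01 in N_30. The hinge protein gene UQCRH stayed between 142 and 153 CPM in all 9 libraries. UQCRB, at 147 ± 10.9 CPM in control, had -0.18 (SE 0.06) in N_28 and -0.04 (SE 0.06) in N_30, and UQCR11, at 17.3 ± 1.08 CPM, had -0.19 (SE 0.09) and 0.06 (SE 0.09). The complex III sums of 1402 ± 25.1 CPM in control, 1382 ± 28.2 in N_28 and 1398 ± 83.7 in N_30 overlapped.

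Cytochrome c is the soluble carrier between complexes III and IV, held in the crista space and released in apoptosis. CYCS had 348, 403 and 375 CPM in control, 394, 442 and 400 CPM in N_28 and 365, 384 and 364 CPM in N_30. The N_28 libraries overlapped control, with a log2 fold change of 0.13 (SE 0.07, edgeR adjusted p = 0.232), and lay above all N_30 libraries. N_30 stood at -0.02 (SE 0.07) against control, and the difference between the knock-downs of -0.15 (SE 0.07, edgeR adjusted p = 0.133) did not pass. The table has 42 pseudogene rows named for CYCS, which together held at most 0.807 CPM in a library.

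Complex IV, cytochrome c oxidase, held the gene with the clearest change. COX7C (ENSG00000127184, chromosome 5, 86617904 to 86620962, plus strand, GENCODE 29) encodes a small nuclear subunit with a single membrane helix. Its libraries stood at 143, 149 and 136 CPM in control, at 176, 179 and 174 CPM in N_28 and at 178, 189 and 177 CPM in N_30. All 6 knock-down libraries were above all 3 controls, and the knock-downs overlapped each other.

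COX7C rose by 0.31 on the log2 scale in N_28 (SE 0.06, 95% interval 0.19 to 0.43, edgeR adjusted p = 0.00257), a 1.24-fold level. In N_30 it rose by 0.34 (SE 0.06, 95% interval 0.22 to 0.46, edgeR adjusted p = 0.00871), a 1.27-fold level. N_30 exceeded N_28 by 0.04, with a 95% interval from -0.08 to 0.15 that bounds how far the knock-downs may differ. Both values rest on the same 3 controls. The N_30 call was lost without N_30 replicate 2 (0.31, adjusted p = 0.0639), while the N_28 call held without any 1 of the libraries. A small RNA gene, SNORD138, lies in the annotated COX7C exons on the same strand and has no row in the table. Genes of chromosome 5 with at least 5 CPM had medians of 0.01 in N_28 and -0.01 in N_30.

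**Figure D2:**
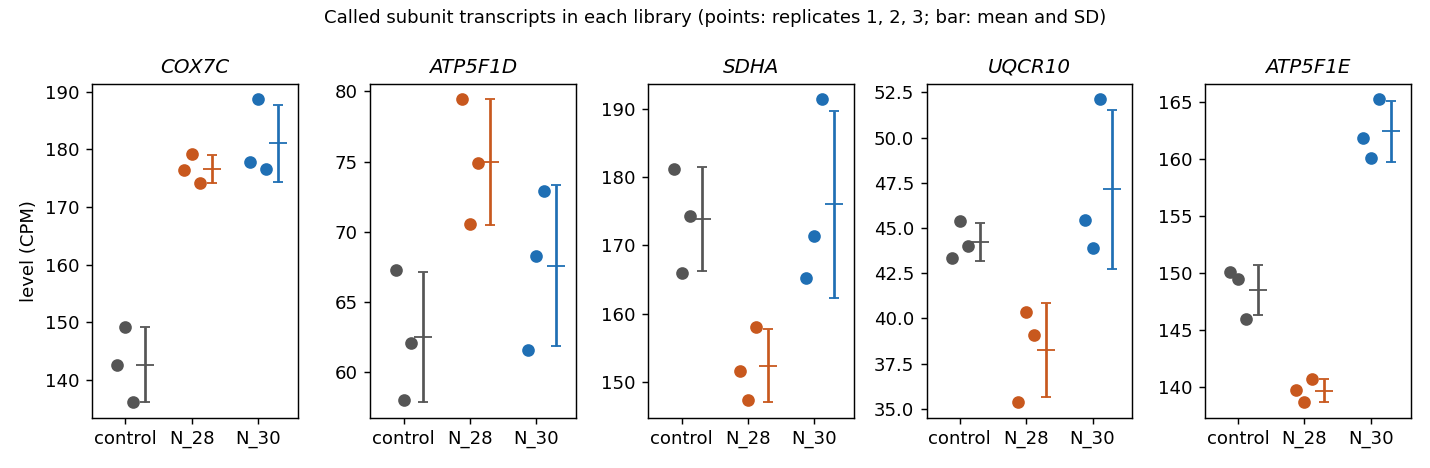
CPM (vertical axis, a separate scale in each panel that does not start at 0) in each of the 9 libraries for the 5 subunit genes called in any comparison, with the mean and SD of each group beside the points. COX7C is above control in all 6 knock-down libraries, while SDHA, UQCR10 and ATP5F1E are lowest in N_28.

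The promoters of COX7C, which rose in both knock-downs, and of UQCR10 and ATP5F1E, which differed between them, are shown for their sequence, as is that of COX5B, which holds several of the motifs searched. Sequences are from RefSeq (GRCh38.p14), 5′ to 3′ on the gene's strand, and show 100 bases upstream of every annotated exon. Capitals mark bases of the searched motifs. In COX5B the first capitals are the end of a match that begins outside the stretch, and a GC box on the other strand directly adjoins CCGGAAG. The COX7C stretch is chr5:86617804-86617903 (plus), UQCR10 chr22:29767269-29767368 (plus), ATP5F1E chr20:59032383-59032482 (minus) and COX5B chr2:97645940-97646039 (plus).
COX7C: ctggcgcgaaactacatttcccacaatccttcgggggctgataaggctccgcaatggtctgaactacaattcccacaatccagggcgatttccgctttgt
UQCR10: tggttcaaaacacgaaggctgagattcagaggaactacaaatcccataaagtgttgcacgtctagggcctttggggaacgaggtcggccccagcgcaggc
ATP5F1E: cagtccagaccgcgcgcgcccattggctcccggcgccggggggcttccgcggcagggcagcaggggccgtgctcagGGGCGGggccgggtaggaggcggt
COX5B: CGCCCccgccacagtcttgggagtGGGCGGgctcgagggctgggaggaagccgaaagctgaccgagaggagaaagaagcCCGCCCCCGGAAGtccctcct

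Promoters of 250 bases before to 50 after the RefSeq start were found for 31 of the 40 genes and searched on both strands. The letters CCGGAAG, the core bound by ETS factors such as GABPA, were in 14 of 31 (45.2%), against 10.7% of all 27305 promoters and 19.1% of 11008 promoters of tested genes. The NRF1-like TGCGCATGC was in 3 (9.7%, against 2.8% of tested genes), in COX5B, COX6A1 and SDHD. The YY1-like AAGATGGC was in 5 (16.1%, against 5.2%), and the GC box GGGCGG in 17 (54.8%, against 70.0%). In 32 promoters of complex I subunits these shares were 15.6% for CCGGAAG, 12.5% for TGCGCATGC, 18.8% for AAGATGGC and 62.5% for GGGCGG. COX7C held a GC box 20 bases before its start, downstream of the printed stretch, and none of the other 3 motifs, and UQCR10 held none of the 4. A match describes letters and is no evidence of binding.

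Of the other 10 complex IV genes, 0 were called in any comparison, and most of the 11 lay above control. In N_28, 10 of 11 were above 0 (median log2 fold change 0.05) and in N_30 9 of 11 (median 0.09). COX5B, the zinc-binding subunit, had 80.8, 86.7 and 85.1 CPM in control, 85.2, 80.5 and 90.5 CPM in N_28 and 87.0, 93.2 and 94.98 CPM in N_30. Its N_30 libraries were above all controls, at 0.12 (SE 0.06, edgeR adjusted p = 0.477), which was not called. COX7B had 0.16 (SE 0.07) in N_28 and 0.14 (SE 0.07) in N_30 from 52.2 ± 4.71 CPM, and its N_30 libraries of 57.1, 59.6 and 55.5 CPM overlapped the control library at 57.6 CPM.

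COX6B1, a subunit on the side facing the intermembrane space, had 132, 127 and 127 CPM in control, 140, 136 and 139 CPM in N_28 and 121, 127 and 125 CPM in N_30. Its N_28 libraries were above all others, with a log2 fold change of 0.11 (SE 0.05, edgeR adjusted p = 0.226) against control. N_30 lay below N_28 by -0.16 (SE 0.05), and the edgeR adjusted p = 0.0510 narrowly missed the threshold.

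The regulatory subunit COX4I1, at 312 ± 5.73 CPM in control, had 0.05 (SE 0.05) in N_28 and 0.01 (SE 0.05) in N_30. COX7A2 was lowest of complex IV in N_28 at -0.01 (SE 0.05), and COX6C was lowest in N_30 at -0.05 (SE 0.06). COX5A, COX8A and NDUFA4, the last first described with complex I, ranged from 0.02 to 0.14 over both knock-downs. COX6A1 had the highest uncalled values of the complex, 0.21 (SE 0.13) and 0.25 (SE 0.13), on only 4.47 ± 0.160 CPM in control.

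Summed over its 11 genes, complex IV had 1044, 1068 and 1040 CPM in control, 1134, 1104 and 1113 CPM in N_28 and 1102, 1120 and 1116 CPM in N_30. Every knock-down library was above every control library, by sums of 1117 ± 15.1 CPM in N_28 and 1112 ± 9.45 CPM in N_30 against 1051 ± 15.3 CPM. Without COX7C the sums were 908 ± 9.44 CPM in control, 940 ± 16.1 in N_28 and 931 ± 7.85 in N_30, and the highest control of 919 CPM was still below the lowest knock-down library of 924 CPM. No test was made of these sums.

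**Figure D3:**
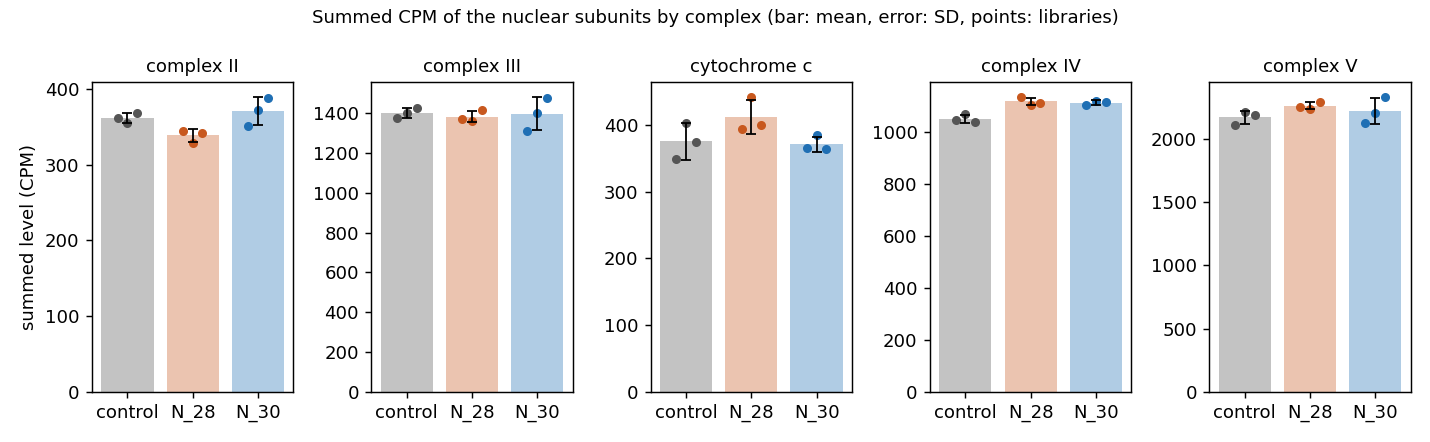
Summed CPM of the nuclear subunits of each complex (vertical axis from 0, a separate scale in each panel) in control, N_28 and N_30, with bars for the mean, error bars for the SD and points for the 3 libraries. Complex IV is higher in all 6 knock-down libraries than in the 3 controls, and in complexes III and V the libraries of control and N_30 overlap. The N_28 libraries lie below all controls in complex II and above all controls in complex V.

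ATP synthase consists of the catalytic F1 head and central stalk, and of a membrane part with a ring of c subunits and a peripheral stalk. In the head and stalk, ATP5F1D, the delta subunit of the central stalk (chromosome 19, 1241746 to 1244826, plus strand), had 67.3, 58.0 and 62.1 CPM in control. It had 79.5, 70.6 and 74.9 CPM in N_28 and 61.6, 68.3 and 72.9 CPM in N_30. All N_28 libraries were above all controls, and N_30 overlapped both groups. The rise of 0.26 in N_28 (SE 0.08, edgeR adjusted p = 0.0431), a 1.20-fold level, was close to the threshold. It was lost without any 1 of 6 libraries in turn (control replicates 2 and 3, each N_28 replicate, N_30 replicate 2), with adjusted p up to 0.177. In N_30 the value was 0.11 (SE 0.08, edgeR adjusted p = 0.632). Genes of chromosome 19 with at least 5 CPM had a median of 0.06 in N_28 and -0.01 in N_30 over 726 genes. The part of that shift in the ATP5F1D value was not tested.

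ATP5F1E, the epsilon subunit of the same stalk (chromosome 20, 59025467 to 59032382, minus strand), gave the tightest libraries of the called genes. It had 150, 149 and 146 CPM in control, 140, 139 and 141 CPM in N_28 and 162, 160 and 165 CPM in N_30. The 3 groups did not overlap, with N_28 lowest and N_30 highest. Against control neither change was called, with N_28 at -0.09 (SE 0.05, edgeR adjusted p = 0.304) and N_30 at 0.13 (SE 0.05, adjusted p = 0.315). The knock-downs differed by 0.22 (SE 0.05, edgeR adjusted p = 0.00748). Genes of chromosome 20 with at least 5 CPM had a median of -0.05 in N_28 and 0.05 in N_30 over 305 genes, and the part of that shift in the ATP5F1E value was not tested. Exons of ATP5F1E overlap those of TUBB1 on the opposite strand, which had 13 to 39 counts per library against at least 2523 for ATP5F1E.

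The main subunits of the head were not called in any comparison. The catalytic beta subunit ATP5F1B had 588, 632 and 633 CPM in control, 704, 666 and 706 CPM in N_28 and 583, 641 and 678 CPM in N_30. Its N_28 libraries were above all controls, at 0.16 (SE 0.06, edgeR adjusted p = 0.127), which was not called. The alpha subunit ATP5F1A had -0.02 in N_28 and -0.01 in N_30 (SE 0.05 each) from 376 ± 8.65 CPM. The gamma subunit ATP5F1C was lowest of complex V in N_30 at -0.03 (SE 0.05), from 241 ± 4.69 CPM.

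Of the 3 genes for the identical mature c subunit of the membrane ring, 0 were called in any comparison. ATP5MC1 had 0.17 (SE 0.07, edgeR adjusted p = 0.145) in N_28, from 141, 150 and 159 CPM in control to 166, 163 and 174 CPM. ATP5MC2 stood at -0.09 (SE 0.06) and ATP5MC3 at 0.04 (SE 0.05) in N_28, and in N_30 the 3 ranged from 0.01 to 0.03.

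In the peripheral stalk and small membrane subunits, ATP5MF was highest of complex V in N_30. It had 21.1, 23.0 and 19.9 CPM in control, 21.0, 23.4 and 22.9 CPM in N_28 and 28.6, 24.4 and 25.2 CPM in N_30. All N_30 libraries were above all others, at 0.29 (SE 0.09, edgeR adjusted p = 0.186), which was not called. The stalk subunits ATP5PB, ATP5PD, ATP5PF and ATP5PO ranged from 0.02 to 0.11 in N_28 and from 0.03 to 0.12 in N_30. ATP5MG had -0.04 (SE 0.07) and 0.09 (SE 0.07). ATP5ME was highest in N_28 at 0.31 (SE 0.37), on 0.945 ± 0.129 CPM in control. The 15 genes of complex V summed to 2171 ± 54.1 CPM in control, 2264 ± 28.4 in N_28 and 2222 ± 104 in N_30. The N_28 sums (2239 to 2295 CPM) were all above the control sums (2111 to 2215 CPM), while those of N_30 overlapped control. These sums were not tested.

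Between the knock-downs, SDHA, UQCR10 and ATP5F1E were called higher in N_30 and 0 of 40 lower, where 9.38% of all tested genes were called higher and 8.96% lower. Libraries of the knock-downs did not overlap for 9 of 40 genes that were higher in N_30 (background 18.4%) and for 4 of 40 that were lower (18.1%). The 4 were CYCS, COX6B1, UQCRFS1 and UQCRC2. The median difference over the 40 genes was 0.01, with 21 of 40 above 0, and -0.005 with 18 of 40 above 0 without N_30 replicate 3.

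Among the 40 genes, 8 with much of their coding sequence covered by exons of other genes had low levels. In SDHD, UQCR11, COX6A1, COX8A, ATP5ME, ATP5MF, ATP5MG and ATP5PO, 44.0 to 100% of the coding bases are also covered by exons of another annotated gene. Their control means ran from 0.945 to 36.6 CPM (median 18.2), against 31.9 to 617 CPM (median 122) for the other 32, where at most 8.3% is covered. Per kilobase of coding sequence the medians were 63.1 and 230. Their median SE in N_28 was 0.09 against 0.06. Of the 8, 0 were called in any comparison. Of the other 32, 2 were called in N_28, 1 in N_30, 1 in the mean of both and 3 in N_30 against N_28. These numbers are too small to tell the sets apart. This grouping was made after the levels had been seen, and it counts coding bases only. Over the whole transcript, ATP5F1E was the most covered of the 40 genes, at 71.3%, with 0% of its coding bases. Its level was 971 CPM per kb of coding sequence. For SDHD and ATP5MG, 24.0% and 26.1% of the transcript were covered.

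For SDHD, UQCR11, COX6A1 and COX8A the same-strand overlapping gene had 0 counts in all 9 libraries. ATP5ME shares 61.6% of its exon bases with MYL5 on the opposite strand, which had 95 to 173 counts per library against 13 to 31 for ATP5ME. ATP5PO overlaps a same-strand gene with 0 counts and the antisense gene LINC00649, with 47 to 96 counts. ATP5PF overlaps the opposite-strand start of GABPA, which had 517 to 721 counts. The sources used here do not give how reads in shared exons were handled or whether strand was used, so the levels of these genes are uncertain, and the part of the overlap in them was not tested.

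**Figure D4:**
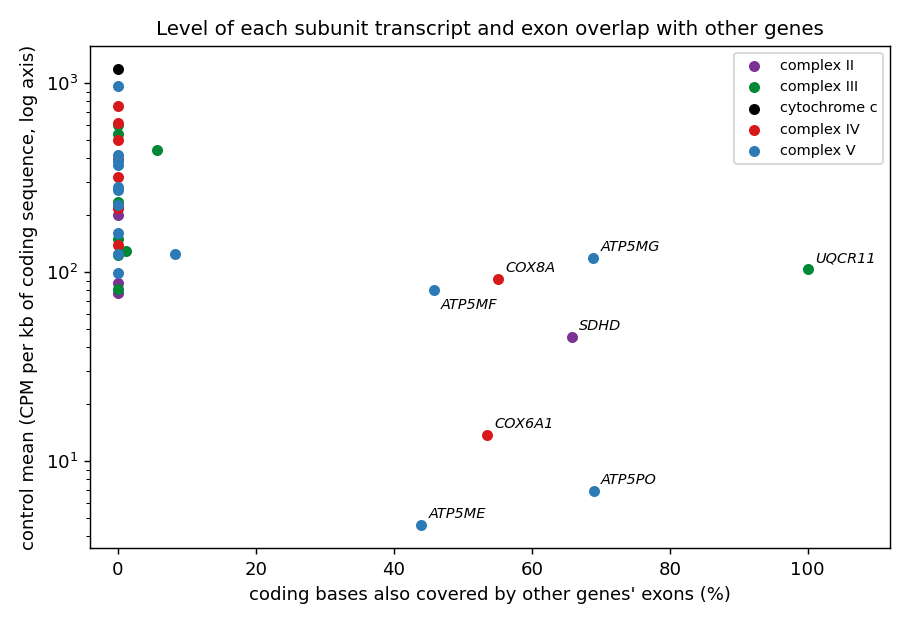
Control mean of each of the 40 transcripts in CPM per kilobase of coding sequence (vertical log axis) against the percent of its coding bases also covered by exons of other genes (horizontal axis), coloured by complex. The 8 named genes at 44.0% or more lie between 4.57 and 118 CPM per kb, and the others between 77.1 and 1191.

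The partners of these subunits encoded in mitochondrial DNA did not pass the test. Of 6 such transcripts of complexes III to V, 0 were called in any comparison. MT-CYB of complex III had log2 fold changes of -0.04 in N_28 and -0.11 in N_30, and the complex IV genes MT-CO1, MT-CO2 and MT-CO3 had -0.09, -0.16 and -0.06 in N_28 and -0.14, -0.09 and -0.07 in N_30. MT-ATP6 of ATP synthase had 0.04 and -0.06. MT-ATP8, whose reading frame overlaps MT-ATP6, had 1.997 ± 0.477 CPM in control against 1791 ± 274 CPM for MT-ATP6. Summed, the 6 had 19898 ± 2751 CPM in control, 18782 ± 2004 in N_28 and 18419 ± 2163 in N_30, and library 3 was the lowest of each group, at 16721, 16470 and 16677 CPM.

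Alternative isoforms of the subunits were mostly at or near 0. COX4I2, COX7B2 and COX8C had 0 counts in every library, and COX6A2, COX6B2, UQCRHL and ATP5MGL stayed at a group mean of at most 0.12 CPM. COX7A1 had 0.795 ± 0.250 CPM and NDUFA4L2 1.72 ± 0.113 CPM in control. COX7A2L, which helps to join complexes III and IV into supercomplexes, had 74.4 ± 2.26 CPM in control, with 0.02 in N_28 and 0.02 in N_30, and was not called. The subunit ATP5MK was higher in N_30 than in N_28 by 0.21 (SE 0.06, edgeR adjusted p = 0.0192), ATP5MJ was not called, and the ATP synthase inhibitor ATP5IF1 had -0.03 and 0.07.

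Assembly factors insert cofactors and join subunits without staying in the finished complex. Of 39 tested assembly factors, 1 was called higher and 2 lower in N_28 (4.49% and 5.75% of all genes), and 0 were called in either direction in N_30 (0.459% and 0.406%). In N_30 against N_28, 4 were called higher and 2 lower (9.38% and 8.96% of all genes). COX15, which makes the heme A of complex IV, had 63.3, 69.8 and 68.3 CPM in control, 48.4, 53.2 and 48.9 CPM in N_28 and 74.5, 75.3 and 72.2 CPM in N_30. Its 3 groups did not overlap. COX15 fell by 0.42 in N_28 (SE 0.06, edgeR adjusted p = 0.000579) and had 0.14 (SE 0.06, adjusted p = 0.397) in N_30.

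Among complex III factors, UQCC1 fell by 0.27 in N_28 (SE 0.07, edgeR adjusted p = 0.0284) and UQCC2, which acts with it in cytochrome b synthesis, rose by 0.20 (SE 0.06, adjusted p = 0.0356). N_30 was higher than N_28 in UQCC1 (0.40), TTC19 (0.44), COX15 (0.56) and COA3 (0.20), and lower in UQCC2 (-0.27) and COX19 (-0.29), all called. SURF1 and LRPPRC, needed for complex IV assembly and for stability of mitochondrial mRNA, had 0.19 and -0.10 in N_28 and 0.18 and -0.07 in N_30, not called.

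Of 13 tested regulators of respiratory genes, 0 were called in any comparison. NRF1 (0.01 in N_28 and 0.04 in N_30), GABPA (0.02 and -0.12), TFAM (0.02 and -0.10) and ESRRA (0.17 and 0.17) are the best known, and the coactivator PPARGC1A had at most a mean of 0.0163 CPM in a group. Of 13 genes listed for coenzyme Q, COQ10B was the 1 called in N_28, as higher (0.25, SE 0.07, edgeR adjusted p = 0.0455). Of all tested genes, 4.49% were called higher there. In N_30, 0 of the 13 were called, where 0.459% of all genes were called higher and 0.406% lower. Of 35 tested nuclear subunits of complex I, 0 were called against control, with medians of 0.01 in N_28 and 0.04 in N_30, and NDUFB1 was called higher in N_30 than in N_28 (0.24).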

How the data were processed

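Raw read counts per gene, as whole numbers under human Ensembl identifiers, were deposited by the authors for 9 libraries. Per the submitters' processing notes the build was mm8, a mouse build, although the rows are human genes. The sources used here do not give the aligner, counting tool, annotation or strand setting. Symbols came from a name table (56434 rows) and GENCODE release 29 (434 more), and coordinates from GENCODE 29 on GRCh38.

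Counts were filtered with edgeR's filterByExpr (minimum count 10), which left 15019 genes, and scaled by TMM. The quasi-likelihood fit in edgeR 4.0.16 (R 4.3.3) ran over all 9 libraries with a term per group. The 4 comparisons were each knock-down against control, their mean against control, and N_30 against N_28. P-values were adjusted by Benjamini-Hochberg over all tested genes, and calls were made under 0.05. Levels are given as CPM after TMM scaling, with mean ± SD over 3 libraries. The lengths used for levels per kilobase are those of 1 principal transcript per gene. In the smallest library, 3 counts make 0.182 CPM, a floor that covers counting error only.

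In control and N_30, same-numbered libraries deviated together (correlations 0.122, 0.169 and 0.306). The fit with the replicate block is therefore given beside the main one there, although the labels do not state pairs. All values and p-values of single genes in N_30 are from the main fit, which has no such term. For COX7C in N_30 the edgeR adjusted p was 0.00871 in the main fit and 0.000888 with the block. In pairs with N_28 the correlations ran from -0.0588 to 0.235. Alternatives were DESeq2 1.42.0, its size factors in edgeR, no filter, a mean CPM of at least 5, only the groups compared, the replicate block, each library left out, and pseudogene rows added to the sums. The fitting script was tested on simulated data. The members and gene lists were chosen with earlier results of these data known. Every member may be named. Full values were given for called members and for the highest and lowest of each complex, and from other lists for called genes and a fixed set of known regulators and factors. Members whose libraries did not overlap were named after their values were seen. Exon overlap and chromosome medians were added after the levels had been seen. Motif letters were searched in RefSeq promoters (GRCh38.p14).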

Additional observations from a re-analysis of the deposited data

Results flagged for a closer look

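The knock-downs differed from each other in 3 of the 40 genes by the edgeR test of that difference, with N_30 above N_28 in each. The log2 difference was 0.21 for SDHA, 0.30 for UQCR10 and 0.22 for ATP5F1E. In all 3 genes every N_30 library was above every N_28 library (3 against 3). Each knock-down on its own was not called against control for these genes. The share of all tested genes called higher in N_30 than in N_28 was 9.38%, so 3 of 40 is a rate close to that of the whole table.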

How the results depend on the processing

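No direction of a called gene turned under any alternative run. COX7C kept its call under 15 of 15 alternatives in N_28 (0.28 to 0.34), 14 of 15 in N_30 (0.31 to 0.38) and 14 of 14 in the mean of both. ATP5F1E kept its difference between the knock-downs under 15 of 15, UQCR10 under 13 (lost without N_28 replicate 1 or N_30 replicate 3, adjusted p up to 0.0719), SDHA under 9 (adjusted p up to 0.162) and ATP5F1D its N_28 call under 9. With the replicate block, 7 of the 40 genes were called in N_28 (4 higher, 3 lower) and 6 in N_30 against N_28 (3 higher, 3 lower). Of all 15019 tested genes, this fit called 1068 higher and 1233 lower in N_28. In N_30 against N_28 it called 1888 higher and 1785 lower. The block added SDHA, UQCRB and UQCR10 as lower and UQCRFS1 and ATP5MC1 as higher in N_28. It added UQCRFS1, CYCS and COX6B1 as lower in N_30 than in N_28, and changed no other call among the 40. With each library left out in turn, called members numbered 1 to 3 in N_28, 0 to 1 in N_30, and 1 to 4 in N_30 against N_28 (1 without N_28 replicate 1 or N_30 replicate 3). Over all genes, calls in N_28 were 967 to 1712 when 1 library was left out (1538 with all), and those in N_30 58 to 180 (130 with all), 523 with no filter, 267 by DESeq2 and 424 under the replicate block. In the mean of both they were 134 to 322 (268 with all), 705 with no filter, 408 by DESeq2 and 616 under the replicate block. Adding pseudogene rows raised the complex II sums to 399, 376 and 406 CPM in control, N_28 and N_30, by more than 1 SD, and moved no other complex by as much. Depth limits ATP5ME, COX6A1 and ATP5PO most, with group means under 6 CPM.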

Other observations

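The printed stretches of COX7C and UQCR10 share letters that were not among the motifs first searched. The letters ACTACANNTCCCA, where N is any base, occurred at 127 and 75 bases before the COX7C start, and at 67 bases before the start of UQCR10 on its strand and at 243 on the other. Searched on both strands after these sequences had been read, they were in the promoters of 4 of 31 members, COX7C, COX7B, UQCR10 and ATP5PO (12.9%), against 3.07% of 11008 tested genes, 1.49% of all 27305 promoters and 1 of 32 complex I subunits. The letters were taken from the COX7C and UQCR10 promoters, so both of these match by construction. The share among members is raised by that choice and cannot be compared fairly with the other shares. They resemble the site bound by ZNF143. The log2 fold changes of the 4 genes were 0.31, 0.16, -0.21 and 0.11 in N_28 and 0.34, 0.14, 0.09 and 0.04 in N_30. The match describes letters only, and no binding was measured.

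In N_30, library 3 was above the mean of libraries 1 and 2 for 28 of the 40 members, with a median log2 difference of 0.05, and held the highest sum of the 40 genes at 5680 CPM against 5255 and 5487 CPM. Of all 15019 tested genes, 7745 were below that mean in N_30 library 3. In control and in N_28, library 3 was below the mean of libraries 1 and 2 for 22 of the 40 members. Without N_30 library 3, 21 of 40 members lay above control in N_30, against 31 of 40 with it.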
